A study of Mus musculus with 10 samples.

Results

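The Slit ligands and their Robo receptors were followed across 10 RNAseq libraries of a mouse model of gliomagenesis. The members were chosen by gene symbol: the 3 ligand genes *Slit1*, *Slit2* and *Slit3* and the 4 receptor genes *Robo1*, *Robo2*, *Robo3* and *Robo4*, 7 of 23230 features listed, each with 1 row. The cells all derived from cerebral cortex astrocytes of P5 C57BL/6 mice that lack the p16/p19 products of *Ink4a/Arf* and carry a retroviral vector for human EGFRvIII (EGFR*), a constitutively active form of the EGF receptor. The first group, AstroEGFR*, comprised 3 libraries of such astrocytes below passage 10 in medium with fetal bovine serum, each from a separate astrocyte batch. The second, AstroEGFR* *Zfp423*, comprised 3 libraries of the same batches after infection with a further vector for *Zfp423*, a zinc-finger transcription factor. The third, PT, comprised 4 libraries of glioma propagating cells that were derived from tumours formed by AstroEGFR* in CD1 Nude mice, and grown without serum on laminin with EGF and FGF2. The parental batch was batch 1 for PT1 and PT4, batch 2 for PT2 and batch 3 for PT3. The tumour step and the culture medium differ together between PT and the other groups, so their effects cannot be told apart.

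Slits are large secreted proteins whose leucine-rich repeats bind the immunoglobulin domains of Robo receptors, with heparan sulphate as a co-factor. Through Robo1 and Robo2 they repel growing axons and migrating neurons from the midline of the nervous system, and they also act on the movement of glial progenitors, endothelial cells and tumour cells. The receptors have no enzyme activity of their own and signal through adaptors and GTPase-activating proteins that change the actin cytoskeleton. In the data *Slit2* and *Slit3* were lower in PT than in AstroEGFR*, whereas *Slit1*, *Robo1* and *Robo2* overlapped between these groups.

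*Slit2* and *Slit3* also host a microRNA gene each, *Mir218-1* and *Mir218-2*, whose shared product miR-218 is known to target *Robo1* and *Robo2*, so that each ligand locus also encodes a regulator of its own receptors. In GRCm38 *Mir218-1* (chr5:48223942-48224051, plus strand) lies inside *Slit2* (chr5:47983138-48307733, plus strand) and *Mir218-2* (chr11:35616816-35616925, plus strand) inside *Slit3* (chr11:35121224-35708507, plus strand). Both are intronic, in intron 16 of a *Slit2* transcript with 39 exons and intron 14 of a *Slit3* transcript with 36 exons. The mature sequences from RefSeq are shown because both loci give the same 5-prime product, and capitals mark the seed, bases 2 to 8.
mmu-miR-218-5p of Mir218-1: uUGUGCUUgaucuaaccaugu
mmu-miR-218-5p of Mir218-2: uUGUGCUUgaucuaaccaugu
The 2 sequences are identical and share 1 seed. *Mir218-1* and *Mir218-2* were listed at 0 in all 10 libraries. Mature miRNA were not assayed, and nothing follows about their level.

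The start of *Slit2* is shown for its CpG content, as a description of a gene that was lower in PT. Of the 7 members, 6 were matched by symbol in the RefSeq table of promoters for GRCm38.p6, each window covering 250 bases before to 50 after a start. The *Slit2* window held 30 CG, more than 88.3% of 32851 promoters of the same length, and that of *Slit3* (chr11:35121206-35121505) held 41, more than 96.5%. Of the latter, only 18 bases with 1 CG precede the first exon that GENCODE annotates, and 282 bases lie in it. The median was 7. Capitals mark each CG in the 233 bases of the *Slit2* window that precede its first annotated exon (chr5:47982905-47983137, plus strand).
Slit2: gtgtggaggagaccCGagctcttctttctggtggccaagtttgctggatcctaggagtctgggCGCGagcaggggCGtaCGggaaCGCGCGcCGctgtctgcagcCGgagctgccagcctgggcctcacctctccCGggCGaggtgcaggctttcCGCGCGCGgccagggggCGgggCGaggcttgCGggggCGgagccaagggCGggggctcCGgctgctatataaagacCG
On both strands, the GC box letters GGGCGG occurred 3 times in the *Slit2* window and 6 times in that of *Slit3*, and 35.7% of all promoters held them at least once. The TEAD letters GGAATG, held by 14.7% of promoters, and the palindromic E-box CACGTG, held by 7.15%, were in neither window. The *Robo1* window held 15 CG and the 3 windows of *Robo2* held 9, 5 and 17.

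Values are FPKM, which are corrected for transcript length, and differences are on the log2(FPKM + 1) scale, which understates changes of weakly expressed genes. Depth is unknown, and 1 library was made per culture. *Gapdh*, a gene of every cell, was listed between 0.0106 and 50.1 FPKM, so low values are given as listed and not as absence. The number of features at 0 was 9155 in PT3 and 8417 in AstroEGFR*3, against 6200 to 7436 in the other 8 libraries. *Zfp423* itself was at 15.7, 9.73 and 105 FPKM with the vector, above the 3.25 to 4.30 FPKM of AstroEGFR*. *Egfr*, the mouse gene row, was between 7.81 and 362 FPKM in AstroEGFR*, and how far reads of the human vector are counted in it was not tested. *Cdkn2a*, the *Ink4a/Arf* gene, was listed between 3.96 and 130 FPKM in the 10 libraries despite the knockout, and whether these reads lie outside the deleted part was not tested.

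The libraries were checked against markers of cell types. Astrocyte markers summed to 509 to 1048 FPKM in AstroEGFR* and 352 to 921 FPKM in PT, and all 8 were above 1 FPKM in at least 1 library of each group. In AstroEGFR* *Zfp423* they summed to 199, 59.4 and 904 FPKM in batches 1, 2 and 3. Markers of the oligodendrocyte lineage summed to 103 to 309 FPKM in AstroEGFR*, to 1430 and 1742 FPKM in PT1 and PT4, and to 160 and 156 FPKM in PT2 and PT3. Markers of neural progenitors summed to 3761 to 6306 FPKM in AstroEGFR*, to 6509 and 6277 FPKM in PT1 and PT4, and to 1661 and 2430 FPKM in PT2 and PT3. Whether these shifts have a part in the Slit and Robo values was not tested. Microglial markers summed to at most 10.8 FPKM in AstroEGFR* and at most 2.31 FPKM in PT, but to 1454 and 821 FPKM in the *Zfp423* libraries of batches 1 and 2 and to 0.101 FPKM in that of batch 3. Over the features that averaged 1 FPKM or more, the batch 3 library with *Zfp423* correlated best with AstroEGFR*2 (Pearson's r = 0.884 across genes) and less with its own parent AstroEGFR*3 (0.721). That of batch 1 also correlated more with AstroEGFR*2 (0.839) than with its parent (0.770). The batch 3 library held the most *Zfp423* of the 10, at 105 FPKM against 15.7 and 9.73 FPKM in batches 1 and 2. *Egfr* in batches 1, 2 and 3 was at 7.81, 362 and 63.0 FPKM in AstroEGFR*, and at 116, 82.2 and 343 FPKM with *Zfp423*. The labels were kept and were not tested, and each change from a parental library rests on pairing by label. Results are also given without the batch 3 library with *Zfp423*.

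*Slit2* was the most abundant member in AstroEGFR* by the group mean, though below *Slit3* in AstroEGFR*2, with 16.8 FPKM in AstroEGFR*1, 5.52 FPKM in AstroEGFR*2 and 37.7 FPKM in AstroEGFR*3. In PT1 to PT4 it was at 0.0471, 0.0406, 0.535 and 0.0592 FPKM. All 4 PT libraries thus lay below all 3 AstroEGFR* libraries, and PT3 stood above the other PT. These groups did not overlap, in either direction, for 10.4% of all 23230 features listed. The means of 20.0 ± 16.3 FPKM (SD, n = 3) and 0.171 ± 0.243 FPKM (SD, n = 4) differed by 117-fold, by 409-fold without PT3 and by 65.5-fold without AstroEGFR*3. In AstroEGFR* *Slit2* stood above 80.5% of all features by mean FPKM, and in PT above 41.2%.

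*Slit3*, a related ligand known also from the diaphragm and vasculature, was at 13.6, 8.87 and 35.0 FPKM in the 3 AstroEGFR* libraries. In PT1 to PT4 it was at 1.26, 0.0256, 0.991 and 0.430 FPKM. The groups again did not overlap, as was so for 10.4% of all features listed. PT2, which held the least *Slit3*, was not the PT that stood apart for *Slit2*. The means were 19.2 ± 13.9 FPKM (SD, n = 3) and 0.676 ± 0.553 FPKM (SD, n = 4), a difference of 28.4-fold, or 16.6-fold without AstroEGFR*3. *Slit2* and *Slit3* were both highest in AstroEGFR*3 and lowest in AstroEGFR*2 among the parental cultures.

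**Figure D1:**
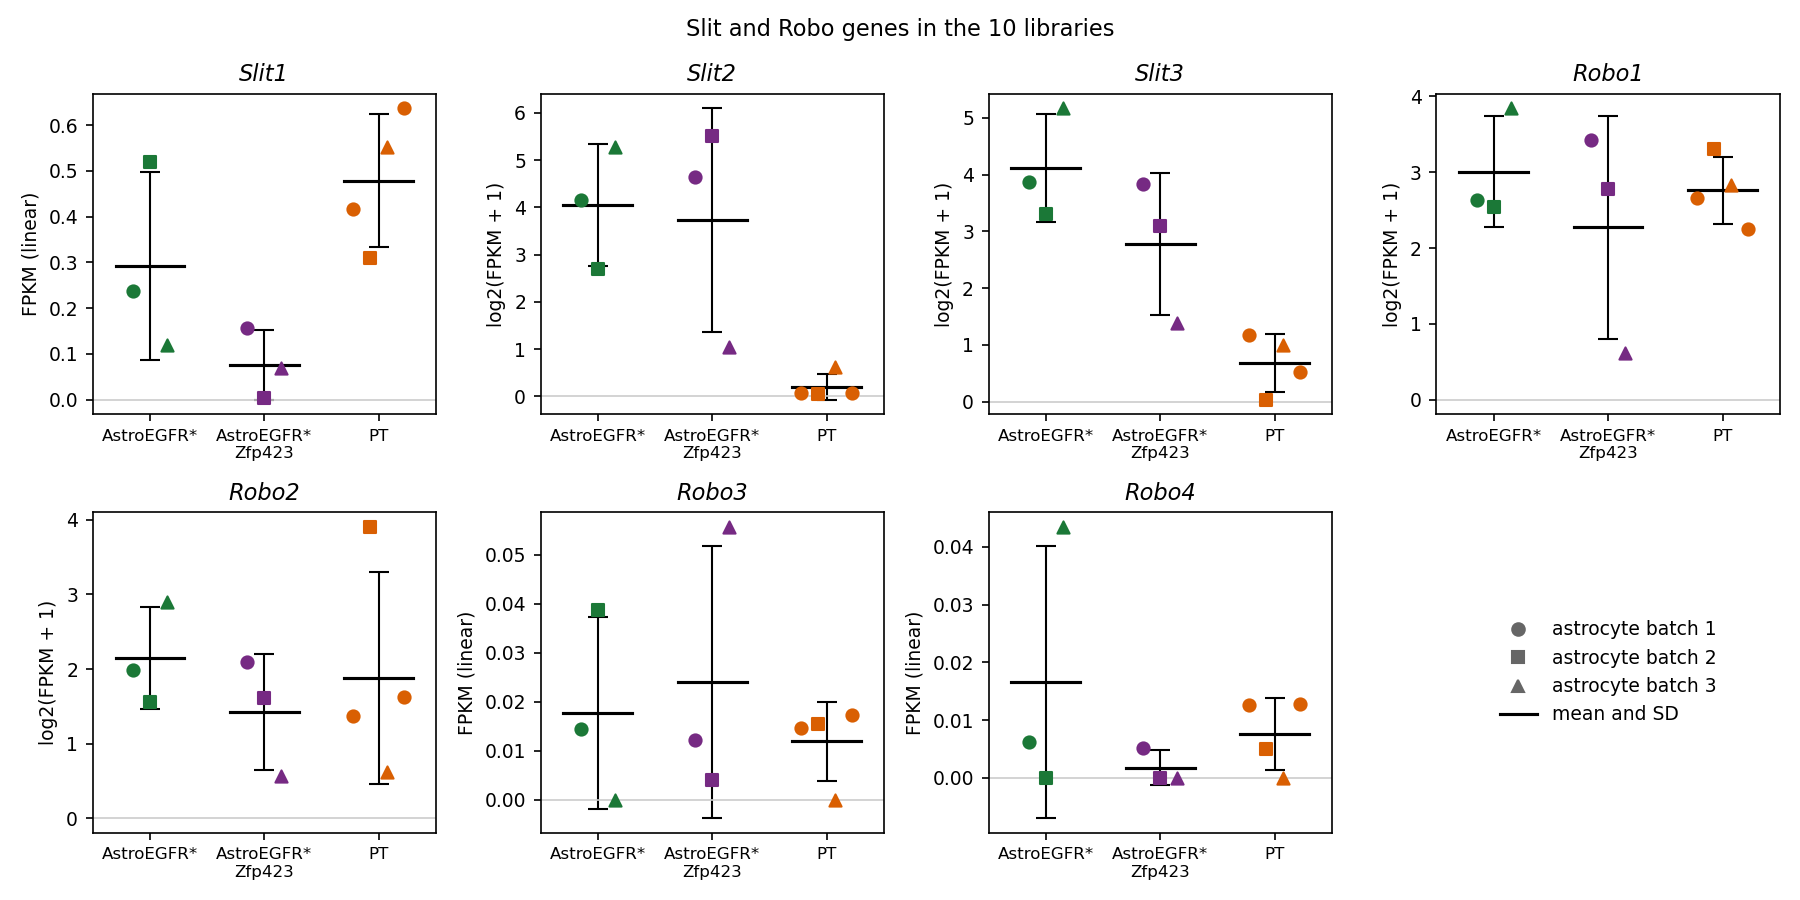
The 7 members in each library, as log2(FPKM + 1) for the 4 that averaged 1 FPKM or more and as linear FPKM for the others, with marker shape for the astrocyte batch and lines for the mean and SD of the group. *Slit2* and *Slit3* of PT lie below every AstroEGFR* library, at no more than 0.535 and 1.26 FPKM, while *Robo1* and *Robo2* overlap. PT and AstroEGFR* did not overlap for 10.4% of all features listed.

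In the 7 libraries 4 members averaged 1 FPKM or more, namely *Slit2*, *Slit3*, *Robo1* and *Robo2*. The other 3 were not tested across features. *Slit2* and *Slit3* reached this level through AstroEGFR* alone, since their means in PT were under 1 FPKM, so the count of calls among members that passed supports nothing by itself. Without the filter neither was called (limma, adjusted p = 0.0616 and 0.0601). Of the 4, 2 were called lower in PT at a Benjamini-Hochberg adjusted p below 0.05 with limma, and 0 higher. In the same fit 1.24% of 12261 features were called in either direction and 0.922% were called lower. The log2 fold change of *Slit2* was -3.84 (95% confidence interval -5.17 to -2.50, limma, adjusted p = 0.0274), and 0.383% of features fell further. That of *Slit3* was -3.43 (-4.60 to -2.27, limma, adjusted p = 0.0260), and 0.612% fell further.

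Both calls depended on the settings and on which libraries were in the fit. With a pseudocount of 0.1 *Slit3* was no longer called (limma, adjusted p = 0.0522), and the log2 fold change of *Slit2* was -6.16. Without AstroEGFR*1 the log2 fold changes were -3.78 and -3.56 and the limma adjusted p rose to 0.142 and 0.116, the highest over 15 alternatives, of which 5 kept each gene below the threshold. Of the fits without 1 library, only that without AstroEGFR*2 kept both calls. PT1 and PT4, which share a batch and correlated at 0.956 across genes, were also averaged to count as 1, and the limma adjusted p was then 0.0712 and 0.0578. With all 10 libraries in 1 fit it was 0.126 and 0.0526. AstroEGFR*3 and PT3, the libraries with the most features at 0, were also left out together, and *Slit2* was then at -3.36 (limma, adjusted p = 0.102) and *Slit3* at -3.01 (0.102).

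Within each batch the direction was the same. On the log2 scale *Slit2* differed from AstroEGFR*1 by -4.09 in PT1 and -4.07 in PT4, from AstroEGFR*2 by -2.65 in PT2 and from AstroEGFR*3 by -4.66 in PT3. The differences of *Slit3* were -2.70 and -3.35 in batch 1, -3.27 in batch 2 and -4.18 in batch 3. With the batch as a block both calls were kept, while 475 features in place of 152 passed.

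**Figure D2:**
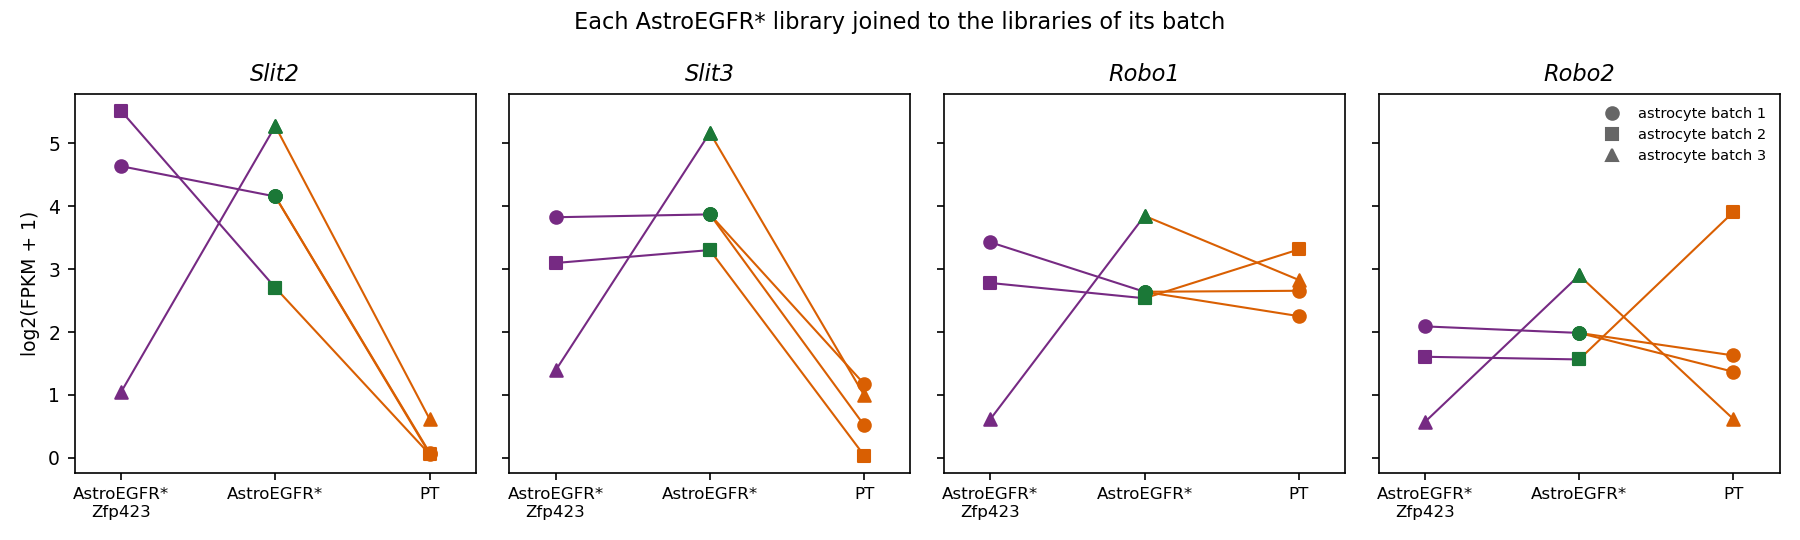
Log2(FPKM + 1) of *Slit2*, *Slit3*, *Robo1* and *Robo2*, with each AstroEGFR* library in the centre joined to the PT (right) and the *Zfp423* library (left) of its batch. All 4 lines to PT fall, with differences from -4.66 to -2.65 for *Slit2* and from -4.18 to -2.70 for *Slit3*, and the lines to *Zfp423* diverge between batches for *Slit2*.

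*Slit1*, a ligand found mainly in the nervous system, was low in all 10 libraries. AstroEGFR* held 0.238, 0.519 and 0.120 FPKM, and PT1 to PT4 held 0.416, 0.309, 0.552 and 0.637 FPKM. Its mean was nominally higher in PT, but the ranges overlapped and the difference of 0.20 on the log2 scale was within their spread (exact permutation test, two-sided, p = 0.2). In all 4 PT libraries *Slit1* exceeded *Slit2*, whereas *Slit2* exceeded *Slit1* in all 3 AstroEGFR* libraries.

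*Robo1*, the receptor of widest expression, was the most abundant receptor in AstroEGFR*, at 5.23, 4.80 and 13.4 FPKM. In PT1 to PT4 it was at 5.30, 8.94, 6.10 and 3.77 FPKM. The ranges overlapped, and the log2 fold change was -0.25 with a 95% confidence interval from -1.20 to 0.70 (limma, adjusted p = 0.856). A fall of the size of *Slit2* or *Slit3* lies outside that interval. AstroEGFR*3 held the highest value, and without it the log2 fold change was 0.17.

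*Robo2*, the partner of *Robo1* in axon guidance, was at 2.96, 1.96 and 6.47 FPKM in AstroEGFR*. In PT1 to PT4 it was at 1.58, 14.0, 0.531 and 2.09 FPKM, so that the highest and the lowest value of the 7 libraries were both PT. PT2 was 7.17-fold above its parent AstroEGFR*2, and PT3 was 12.2-fold below AstroEGFR*3. The log2 fold change of -0.27 had an interval from -2.05 to 1.51 (limma, adjusted p = 0.926), and turned to 0.15 without PT3 and to 0.11 without AstroEGFR*3. The direction of *Robo2* therefore differed between batches, which no test addressed with 1 or 2 PT per batch.

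*Robo3*, which delays the response of commissural axons to Slit, was at most 0.0558 FPKM in any library and listed at 0 in AstroEGFR*3 and PT3. *Robo4*, an endothelial receptor, was at most 0.0435 FPKM and listed at 0 in 4 libraries. The 8 endothelial markers summed to at most 3.40 FPKM in any library, and none of them reached 1 FPKM in PT. Neither receptor was told apart between groups (exact permutation tests, two-sided, p = 0.857 for *Robo3* and 0.743 for *Robo4*, PT against AstroEGFR*).

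The order of the members changed between the cell types. In AstroEGFR* it was *Slit2*, *Slit3*, *Robo1*, *Robo2*, *Slit1*, *Robo3* and *Robo4* by mean FPKM. *Slit2* and *Slit3* did not differ beyond their spread, nor did *Slit3* and *Robo1* or *Robo1* and *Robo2* by their ranges, although *Slit3* exceeded *Robo1* and *Robo1* exceeded *Robo2* within each of the 3 libraries. In PT the order was *Robo1*, *Robo2*, *Slit3*, *Slit1*, *Slit2*, *Robo3* and *Robo4*, with *Robo1* above all 3 ligands in every library. The ranges of *Robo1* and *Robo2*, *Robo2* and *Slit3*, *Slit3* and *Slit1*, and *Slit1* and *Slit2* overlapped, and *Robo3* lay below *Slit2*.

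The FPKM of the 3 ligands and of the 4 receptors were summed to describe this balance. Ligands exceeded receptors by 3.74, 2.19 and 3.66 times in AstroEGFR*1, AstroEGFR*2 and AstroEGFR*3. In PT1 to PT4 the ratio was 0.249, 0.0163, 0.313 and 0.191, with the lowest in PT2, where receptor FPKM summed to 23.0. In AstroEGFR* *Zfp423* it was 2.85, 6.62 and 2.58 in batches 1, 2 and 3. The ratio was above 1 in all 6 astrocyte libraries and below 1 in all 4 PT, as a description of the values above and with no test.

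Markers of fibroblasts and meninges moved with *Slit2*, and less closely with *Slit3*. All 8 were listed, and none was below 1 FPKM in every library of a group. Their FPKM summed to 659, 650 and 6205 in AstroEGFR*1 to AstroEGFR*3, to 121, 47.9, 526 and 88.6 in PT1 to PT4, and to 5102, 7599 and 348 in AstroEGFR* *Zfp423*. The 6 markers of mural cells moved likewise, with sums of 30.3 to 82.0 FPKM in AstroEGFR*, 3.23 to 9.92 FPKM in PT, and 83.8, 101 and 11.8 FPKM in AstroEGFR* *Zfp423*. The 3 libraries with the highest fibroblast and meningeal sums also held the most *Slit2*, in the same order, and the 3 with the lowest sums held the least. Over the 10 libraries, on the log2 scale, the sum correlated with *Slit2* at 0.928 and with *Slit3* at 0.848 (Pearson's r), as a description. AstroEGFR*2 *Zfp423*, with the highest sum, held 7.56 FPKM of *Slit3*, against 13.6 FPKM in AstroEGFR*1 with a sum of 659. PT3 and AstroEGFR*2 had sums of 526 and 650 FPKM, and *Slit2* was at 0.535 and 5.52 FPKM in them. Fewer cells of a type and less RNA per cell cannot be told apart in bulk samples, and the part of these markers in the fall of *Slit2* and *Slit3* was not tested.

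**Figure D3:**
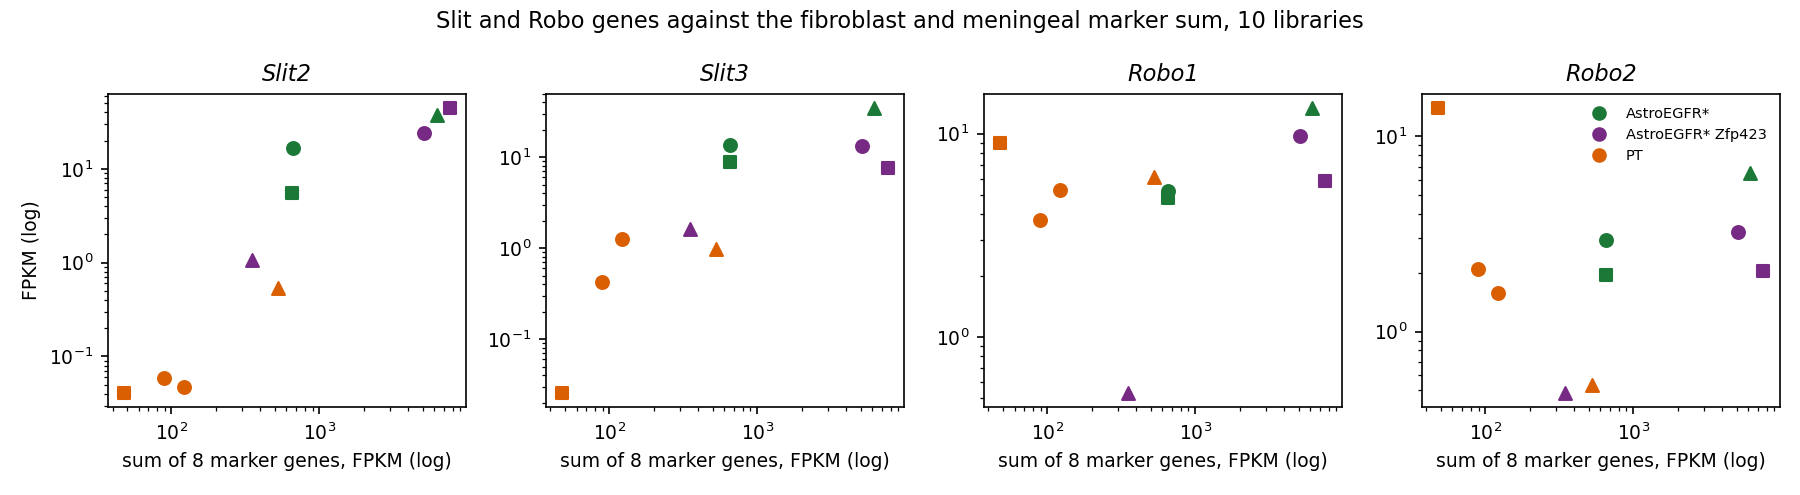
FPKM of *Slit2*, *Slit3*, *Robo1* and *Robo2* (vertical log axes) against the summed FPKM of 8 fibroblast and meningeal markers (horizontal log axes) in the 10 libraries, coloured by group and with circles, squares and triangles for batches 1, 2 and 3. *Slit2* runs from 0.0406 FPKM at the lowest sum, 47.9, to 44.8 FPKM at the highest, 7599, while *Robo2* has its highest value, 14.0 FPKM, at the lowest sum.

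With the *Zfp423* vector *Slit2* was above its parent in batches 1 and 2 and below it in batch 3, while *Slit3* was not above it in any batch. *Slit2* was at 23.9, 44.8 and 1.06 FPKM in batches 1, 2 and 3, which is 1.42-fold and 8.12-fold above the parental library in batches 1 and 2 and 35.6-fold below it in batch 3. *Slit3* was at 13.2, 7.56 and 1.62 FPKM, close to the parental values in batches 1 and 2 and 21.6-fold below in batch 3. The AstroEGFR*3 *Zfp423* library thus held the lowest *Slit2* and *Slit3* of the 6 astrocyte libraries. Each library was paired with its parent by label, and this pairing was not tested.

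Both receptors were also lowest in batch 3. *Robo1* was at 9.76, 5.87 and 0.528 FPKM in batches 1, 2 and 3, above the parent in the former 2 and 25.4-fold below it in batch 3. *Robo2* was at 3.26, 2.05 and 0.484 FPKM, with batch 3 13.4-fold below its parent. The lowest *Robo1* and *Robo2* of all 10 libraries were therefore both in the AstroEGFR*3 *Zfp423* library. *Slit1* was lower than the parent in all 3 batches, at 0.156, 0.00369 and 0.0694 FPKM (exact sign-flip test over batches, two-sided, p = 0.25, the smallest that 3 batches allow).

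With the batch as a block, 0 of the 4 members tested were called between AstroEGFR* *Zfp423* and AstroEGFR*, and 0% of 12366 features were. At an unadjusted p below 0.05 there were 913 features and 0 members, and without the block limma called 2 features. Without the AstroEGFR* or the *Zfp423* library of batch 2 limma called 47 and 60 features, of which 46 and 59 were higher, and 0 members. The log2 fold change of *Slit2* was -0.31 with an interval from -4.25 to 3.62 (limma, adjusted p = 0.962), and that of *Slit3* was -1.34 with an interval from -3.71 to 1.03 (limma, adjusted p = 0.693). For *Robo1* it was -0.73 (-3.21 to 1.74) and for *Robo2* -0.73 (-2.48 to 1.03). Without the AstroEGFR*3 *Zfp423* library, *Slit2* turned to 1.65, *Robo1* to 0.52 and *Robo2* to 0.07, and *Slit3* was at -0.13, none past the threshold. In batches 1 and 2, where *Slit2* was above its parent, the microglial and fibroblast marker sums were above theirs too, and the part of these markers was not tested.

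PT and AstroEGFR* *Zfp423* were compared as the third pair of groups. *Slit2* and *Slit3* of PT lay below all 3 *Zfp423* libraries and *Slit1* above them, so that 3 of 7 members did not overlap, against 9.69% of all features listed. The means of *Slit1* were 0.479 ± 0.145 FPKM (SD, n = 4) in PT and 0.0765 ± 0.0766 FPKM (SD, n = 3) with *Zfp423*. Each of the 3 genes had the smallest p that the design allows (exact permutation test, two-sided, p = 0.0286). That p follows from the lack of overlap and adds nothing to it, and the test counts PT1 and PT4, which share a batch, as separate. Across features 0 of the 4 members tested passed, as 0.0161% of 12412 features did. *Slit2* had a log2 fold change of -3.53 (95% confidence interval -5.81 to -1.24, limma, adjusted p = 0.212) and *Slit3* of -2.09 (-3.53 to -0.65, limma, adjusted p = 0.227). Without the AstroEGFR*3 *Zfp423* library both passed, at -4.87 (limma, adjusted p = 0.00156) and -2.78 (0.0192), with 629 features. In this pair of groups too they passed the filter only through the group where they are high, and with all 7 libraries and no filter the limma adjusted p was 0.317 and 0.324. *Robo1* (0.49, interval -1.04 to 2.02) and *Robo2* (0.46, interval -1.40 to 2.32) did not.

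**Figure D4:**
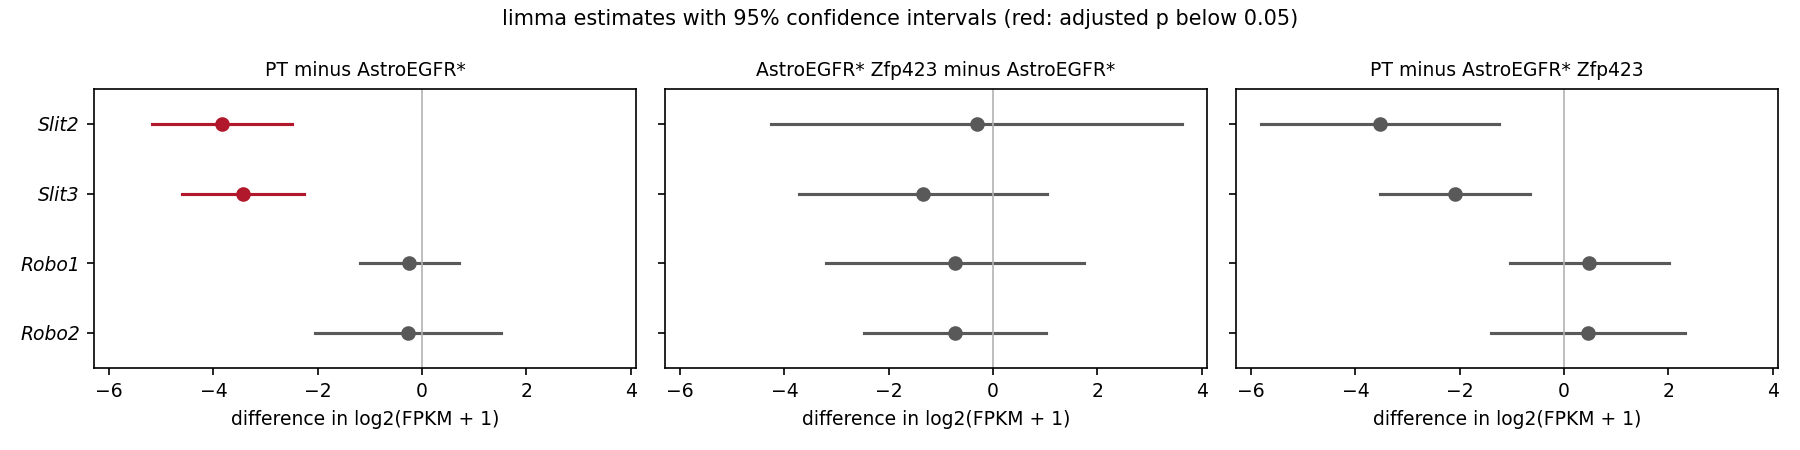
Differences in log2(FPKM + 1) with 95% confidence intervals from limma for the 4 members tested in the 3 comparisons, in red where the adjusted p is below 0.05. *Slit2* (-3.84) and *Slit3* (-3.43) are red in PT minus AstroEGFR*, and all other intervals are grey. The comparisons share libraries and are not independent.

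The genes that work with Slit and Robo were read from a list of 45, of which 44 were listed (all but *Eva1c*) and 43 tested between PT and AstroEGFR*. *Dcc*, the netrin receptor that Robo1 can silence, was at most 0.0445 FPKM and was not tested. Of the 43, 0 were called in either direction, 15 were nominally higher and 28 lower, and the median log2 fold change was -0.18, against 0.03 for all features. Of all 12261 features tested 5872 were nominally lower. At an unadjusted p below 0.05 there were 6 of the list and 1664 of all features.

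Co-receptors, heparan sulphate enzymes and other ligands made up 14 of those tested, with 11 nominally lower in PT and a median of -0.51. None of them was called, and 5872 of 12261 features were nominally lower in the same fit. The largest difference of the list was that of *Sdc1*, a heparan sulphate proteoglycan of the cell surface. AstroEGFR* held 40.3, 34.9 and 66.4 FPKM and the 4 PT held 34.1, 9.10, 15.3 and 28.7 FPKM, without overlap (log2 fold change -1.19, limma, adjusted p = 0.328). *Hs6st1*, which adds sulphate at position 6 of heparan sulphate, was at 51.3, 37.4 and 20.8 FPKM against 18.2, 11.0, 17.0 and 18.0 FPKM, also with all PT below all AstroEGFR* (-1.07, limma, adjusted p = 0.227). Groups that do not overlap were found for 10.4% of all features listed.

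Among 23 intracellular effectors 9 were nominally higher and 14 lower, with a median of -0.05. *Srgap3*, a GTPase-activating protein that binds the tail of Robo, had the largest difference (-0.98, limma, adjusted p = 0.532). It was at 33.1, 7.37 and 10.6 FPKM in AstroEGFR* and at 7.67, 5.37, 3.03 and 13.5 FPKM in PT, and the ranges overlapped. *Srgap2*, of the same family, had the smallest p of the list and was higher in all 4 PT, at 27.2, 19.7, 30.2 and 27.1 FPKM against 15.8, 14.6 and 15.4 FPKM in AstroEGFR* (0.72, limma, adjusted p = 0.202). The 6 genes of receptor trafficking and shedding were split, with 3 nominally higher and 3 lower. In the other comparisons 0 of 41 genes passed with *Zfp423* and 0 of 43 between PT and AstroEGFR* *Zfp423*. Without PT2 *Adam10*, a protease that sheds Robo, passed in the latter (log2 fold change 1.58, limma, adjusted p = 0.0287), in a fit that called 213 of 12395 features.

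**Figure D5:**
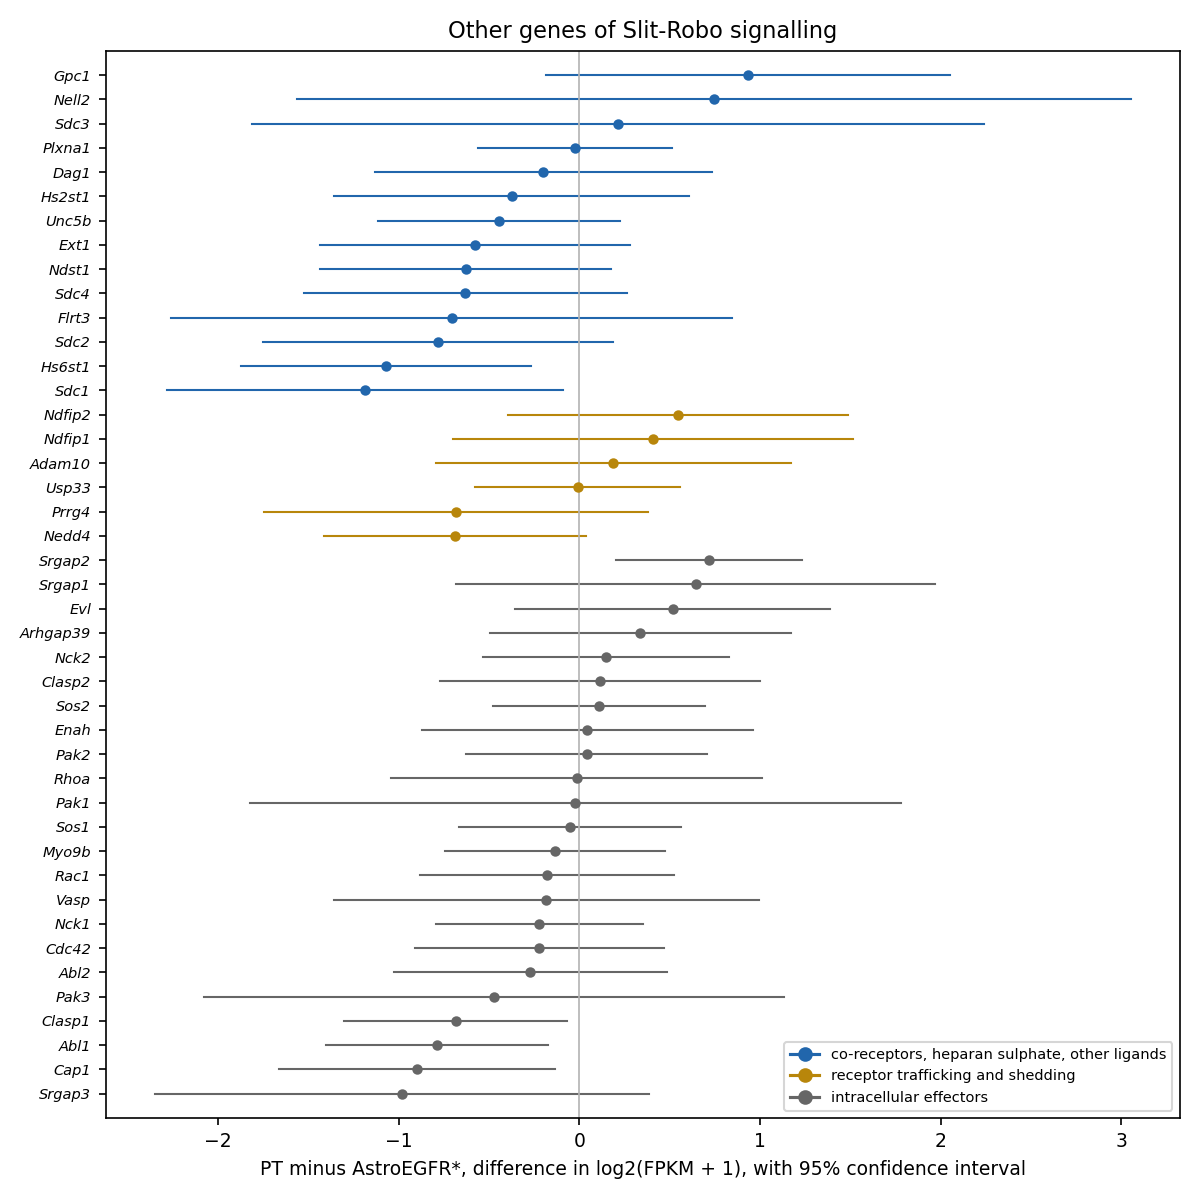
Difference of PT minus AstroEGFR* in log2(FPKM + 1), with 95% confidence intervals, for the 43 genes tested of the list, by role and size of difference. Differences run from -1.19 (*Sdc1*) to 0.93 (*Gpc1*), with 11 of 14 co-receptor and matrix genes to the left of 0, and none passed across features. Of all 12261 features tested 5872 were nominally lower.

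The features most like each tested member were named by Pearson's r on the log2(FPKM + 1) scale across all 10 libraries, among 12476 features that averaged 1 FPKM or more, as a description. The libraries fall into groups that differ in *Slit2* and *Slit3*, so that any gene with the same group difference scores high. For *Slit2* they were *Cthrc1* (r = 0.986), *Lox* (0.983) and *Itgb3* (0.981). *Cthrc1* encodes a secreted protein with a collagen repeat, *Lox* the enzyme lysyl oxidase that crosslinks collagen and *Itgb3* an integrin subunit. *Lox* spanned from 0.279 FPKM in PT4 to 575 FPKM in AstroEGFR*2 *Zfp423*, the library with the most *Slit2*.

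For *Slit3* the nearest were *Slc44a2* (0.970), *St5* (0.969) and *Omd* (0.955), the last encoding a matrix proteoglycan. *Omd* was at 9.58 to 33.2 FPKM in AstroEGFR* and at most 0.150 FPKM in PT. *Slit2* and *Slit3* correlated with each other at 0.921, below the values of their nearest features. For *Robo1* they were *Cd97* (0.912), *Fuca2* (0.892) and *Slc10a7* (0.885), and for *Robo2* *Fam20c* (0.887), *Prr5l* (0.860) and *2810405K02Rik* (0.858). *Prr5l* was at 25.4 FPKM in PT2 and at most 4.76 FPKM elsewhere, and PT2 also held the most *Robo2*. How far its likeness to *Robo2* rests on that library was not tested.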

How the data were processed

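RNAseq of 3 AstroEGFR*, 4 PT and 3 AstroEGFR* *Zfp423* cultures was used. The authors deposited 1 matrix of FPKM values, named by gene symbol and without coordinates. The submitters' processing notes name TopHat 1.3, Cuffnorm and mm9, without their roles. Per the labels the libraries were made with a TruSeq RNA kit and the *Zfp423* vector was lentiviral, whereas the methods of the study describe stranded libraries depleted of ribosomal RNA and a retroviral vector. FPKM hold no counts, so the depth and the precision it gives are unknown.

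Features that averaged 1 FPKM or more in the libraries compared were tested on log2(FPKM + 1) with limma 3.58.1 in R 4.3.3 (empirical Bayes with trend, Benjamini-Hochberg adjustment over all features tested, threshold 0.05), with the astrocyte batch as a block for *Zfp423* and without it for PT. The pairing comes from the numbers in the labels and the study's scheme of which tumour arose from which batch. Deviations from group means correlated at 0.346 to 0.499 between AstroEGFR* and PT of the same batch, and at 0.241, -0.111 and -0.262 between AstroEGFR* and AstroEGFR* *Zfp423* of batches 1, 2 and 3. Across batches AstroEGFR*3 correlated with AstroEGFR*2 *Zfp423* at 0.308 and AstroEGFR*2 with AstroEGFR*3 *Zfp423* at 0.224. Single genes were tested by exact permutation, computed in Python 3.11.15 with numpy 2.4.6. Each fit was repeated with no filter, with 0.1 in place of 1 as pseudocount, median-ratio scaling between libraries, no trend, all 10 libraries in 1 fit, the block added or removed, PT1 and PT4 averaged, and leaving out libraries. The fit was tested on simulated data. The text names all 7 members, list genes that passed or had the 3 largest differences, and the 3 nearest features of each member. *Zfp423*, *Egfr*, *Cdkn2a*, *Gapdh*, *Adam10*, *Srgap2*, *Dcc* and *Gpc1* were added after their values were seen. Members, lists and markers were chosen with earlier results of these data known. Sequences and positions are RefSeq and GENCODE M21 on GRCm38 and were not set against the mm9 values. P-values measure the spread between these cultures.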

Additional observations from a re-analysis of the deposited data

Results flagged for a closer look

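*Slit2* stood apart in PT3 among the 4 PT libraries on the log2(FPKM + 1) scale. The gap to the next library made up 0.954 of the range (Dixon's ratio), with 0.535 FPKM in PT3 against 0.0406 to 0.0592 FPKM in the others. *Robo3* of PT3 was listed at 0 while the other PT were at 0.0147 to 0.0173 FPKM, a ratio of 0.847, at levels where nothing can be read from it. Chance flags about 1 in 20 groups of this size, and 2 of 7 genes were flagged, both for PT3, which also had the most features at 0.

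For *Slit2*, *Robo1* and *Robo2* the change with the *Zfp423* vector had opposite signs between batches. This difference was not tested, with 1 pair of libraries per batch, and it rests on pairing by label. *Slit1* and *Slit3* were lower than the parental library in all 3 batches. On the log2(FPKM + 1) scale *Slit2* differed from the parental library by 0.48 in batch 1, 2.81 in batch 2 and -4.23 in batch 3. *Robo1* differed by 0.79, 0.24 and -3.24, and *Robo2* by 0.10, 0.04 and -2.33. *Zfp423* itself was at 105 FPKM in the library of batch 3 and at 15.7 and 9.73 FPKM in the others, and the microglial marker sum was 0.101 FPKM against 1454 and 821 FPKM.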

How the results depend on the processing

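Between PT and AstroEGFR* 2 members were called, 2 with median-ratio scaling, without the trend and with the replicate block, 1 with a pseudocount of 0.1, and 0 without the filter on low values, with all 10 libraries in 1 fit, with PT1 and PT4 averaged, and with AstroEGFR*3 and PT3 left out, an alternative chosen after seeing the data. Without 1 library the count ranged from 0 to 2. *Slit2* and *Slit3* kept their direction in all 15 alternatives, with log2 fold changes from -6.16 to -3.22 and from -4.86 to -2.91. Without the filter 18579 features were tested, and limma adjusted p-values were 0.0616 and 0.0601. The cause of these losses was not tested. The number of all features called ranged from 7 without AstroEGFR*1 to 475 with the block.

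Between PT and AstroEGFR* *Zfp423* 0 members were called in the main analysis and in every alternative but that without the *Zfp423* library of batch 3, so the fits without 1 library ranged from 0 to 2, and those of the pathway list from 0 to 1. With *Zfp423* 0 members and 0 list genes were called in every alternative, the replicate block included or not. The block changed no call of a member or of the list in any comparison, while all features called rose from 2 to 20 between PT and AstroEGFR* *Zfp423*.

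Between PT and AstroEGFR*, fits without 1 library gave log2 fold changes of *Robo1* from -0.48 to 0.17 and of *Robo2* from -0.95 to 0.15, and without AstroEGFR*3 and PT3 they were 0.15 and 0.53. With *Zfp423* the fits without 1 library ranged from -1.88 to 1.65 for *Slit2*, from -1.50 to 0.52 for *Robo1* and from -1.14 to 0.073 for *Robo2*, and were above 0 without either library of batch 3. *Slit3* ranged from -1.99 to -0.13. Between PT and AstroEGFR* *Zfp423* they ranged from -0.34 to 1.07 for *Robo1*, below 0 without the *Zfp423* library of batch 3, and from -0.22 to 0.88 for *Robo2*, below 0 without PT2. *Slit1*, *Robo3* and *Robo4* were fitted only without the filter and were not called there (*Slit1* in PT against AstroEGFR* *Zfp423*, limma adjusted p = 0.231).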
